A study of Mus musculus with 6 samples.

Results

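The miR-297, miR-466, miR-467 and miR-669 families are microRNAs cut from simple repeats rich in UG and CA, most of which lie together inside an intron of the mouse gene Sfmbt2. Members were all mouse microRNA probes of the array whose description names one of these 4 families, with any letter or arm ending. This gave 7 of the 334 mouse microRNA probes: mmu-miR-297, mmu-miR-297b, mmu-miR-466, mmu-miR-467*, mmu-miR-669a, mmu-miR-669b and mmu-miR-669c. The rule for membership uses names and no measured value.

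MicroRNAs are short RNAs that guide Argonaute proteins to messenger RNAs, mainly by pairing of the seed, bases 2 to 8 from the 5′ end. Sfmbt2 encodes a Polycomb group protein. It is imprinted, being expressed from the paternal copy in early mouse embryos and extraembryonic tissue, and the microRNA block in its intron is found in rodents. Deletion of that block in mice is known to impair the placenta.

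RNA came from embryoid bodies of the mouse strain 129S7/SvEv Brd-Hprt b-m2 at day 7 of culture. Embryoid bodies are clumps of embryonic stem cells that start to differentiate in suspension. The MI group carried human BRCA1 with the missense change M1652I, the RQ group human BRCA1 with R1699Q and the WT group wild-type human BRCA1. BRCA1 is a DNA repair protein and tumour suppressor, and both changes lie in its C-terminal BRCT repeats. Each group held 2 arrays, labelled as biological replicates; the labels do not say whether these were separate cultures, so a p-value reflects only the spread among these arrays, and that spread may be technical. The state of the mouse Brca1 gene and the number of clones per line are not given in the labels. On all 6 arrays the RNA of the group was in Cy3, Cy5 held an RNA labelled as wild-type embryoid body, and no dyes were swapped.

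The arrays gave 241 to 255 of 334 probes well above background in Cy3 and 262 to 271 in Cy5. Of 12 probes for microRNAs of pluripotent and early differentiating cells, 10 to 11 were above background in Cy3 on each array, against 2 to 5 in Cy5, while all 5 blood markers were above background in Cy5, against 3 to 4 in Cy3. Other tissue markers went the same way. Of 6 muscle and heart markers 5 to 6 were above background in Cy5 and 3 to 4 in Cy3. For 4 liver and endoderm markers it was 3 to 4 and 1 to 2, and for 4 neural markers 4 and 3 to 4. The Cy5 RNA thus did not have the marker pattern of the Cy3 wild-type RNA, and a Cy3 over Cy5 ratio is read here only between groups, not as a level against wild type. Negative control spots averaged 93.0 and 102.8 in net Cy3 signal on the RQ arrays and 43.8 to 59.4 on the MI and WT arrays. All arrays lay on 1 slide and were read in 1 scan. Both mutants were hybridised in one slide row and WT in another, so slide row and BRCA1 mutation cannot be told apart in a comparison with WT.

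The sequences that the 7 probes detect, read as the complement of each probe outside its shared stem, show how alike the repeat-derived members are. Each is written 5′ to 3′ with the seed in capitals.
mmu-miR-297: aUGUAUGUgugcaugugcaug
mmu-miR-297b: aUGUAUGUgugcaugaacaugu
mmu-miR-669a: aGUUGUGUgugcauguucaugu
mmu-miR-669b: aGUUUUGUgugcaugugcaugu
mmu-miR-669c: aUAGUUGUguguggaugugugu
mmu-miR-466: aUACAUACacgcacacauaagac
mmu-miR-467*: gUAAGUGCcugcauguauaug
The miR-297, miR-297b and miR-669 sequences are UG-rich, with 6 to 7 UG steps each. miR-669a and miR-669b are 2 edits (substitutions, insertions or deletions) apart, miR-297 and miR-297b are 3 apart, and these 4 lie within 5 edits of each other. miR-669c stands further off, at 6 edits from miR-669a and miR-669b and 8 from miR-297b, and is 8 edits from miR-672, which is no member. miR-297 and miR-297b share the seed UGUAUGU, and every other member has a seed of its own. miR-466 is the CA-rich member, with 5 CA steps and 0 UG steps, and is at least 12 edits from any other. miR-467* carries no such run. Its nearest member is miR-297, at 7 edits. RNA of one member may also bind the probe of another at these distances, which was not tested. A base that equals the first base of the stem cannot be told from it, so a part may lack its first base.

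The runs TGTGTG and CACACA were then searched in the microRNA part of every probe; each is the other's reverse complement, so the pair covers both strands. Of the 7 members 6 hold a run, all but miR-467*, against 7 of the other 327 probes (2.14%). Those 7 are let-7b, miR-206, miR-294, miR-342, miR-377, miR-672 and miR-713. In the RefSeq annotation of GRCm38.p6, 81 genes carry the name of one of the 4 families, and 71 of them lie inside Sfmbt2 on chromosome 2. By family, 5 of 6 miR-297 genes, 23 of 28 miR-466 genes, 14 of 17 miR-467 genes and 29 of 30 miR-669 genes lie there. The array description lists miR-669a for 3 entries and miR-297 and miR-467* for 2 each, so a probe can collect signal from several gene copies. Only miR-297 was found in the RefSeq sequence table, within the hairpin of Mir297-1, which lies on chromosome 7 and not inside Sfmbt2. That table held a mature sequence for only 8 of the 81 family genes. A missing match therefore does not show that a probe matches no gene, and the match of miR-297 does not place its signal on chromosome 7.

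All 7 members were detected, with 4 of 4 spots well above background in both channels on all 6 arrays, and all 7 passed the filter for testing. In embryoid bodies with either BRCA1 mutation, 2 of the 7 fell, miR-466 and miR-467*. The mutant over WT ratio of net Cy3 signals was 0.439 in MI and 0.448 in RQ for miR-466, and 0.458 in MI and 0.455 in RQ for miR-467* with the spots that the scanner marked as outliers left out. These signals were not normalised between arrays. For the median tested microRNA the same ratio was 0.877 in MI and 1.15 in RQ. The 5 UG-rich members of the miR-297 and miR-669 families did not pass the test in either mutant. A member was called at an adjusted p under 0.05 in limma (Benjamini-Hochberg over all microRNAs tested). Among all tested microRNAs, 6.46% were called lower in MI than in WT and 13.9% were called lower in RQ than in WT, against 2 of 7 members in each comparison.

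miR-466, the CA-rich member, had a net Cy3 signal (spot signal minus local background) of 195 and 186 on the MI arrays and 196 and 193 on the RQ arrays, against 471 and 395 on the WT arrays. Every mutant array lay below both WT arrays, and the MI and RQ arrays read nearly alike before normalisation. Negative control spots averaged 43.8 and 59.4 on the same MI arrays and 93.0 and 102.8 on the RQ arrays, against 59.4 and 43.8 on the WT arrays. The single spots did not overlap either: the 16 spots on the mutant arrays ranged from 164 to 231, and the 8 spots on the WT arrays from 362 to 512. Spots of 1 array are repeats within it and no further samples. Cy5, which carried RNA of one label on every array, read 40.5 and 36.0 on the MI arrays, 26.7 and 30.9 on the RQ arrays and 45.3 and 41.7 on the WT arrays. In Cy5 the negative control spots averaged 13.1 and 15.5 on the MI arrays and 19.4 and 23.8 on the RQ arrays. On the WT arrays they averaged 26.0 and 11.5. The Cy5 signal of miR-466 on the RQ arrays was thus little above the negative controls. The loess-normalised log2 ratio of Cy3 over Cy5 was 1.12 ± 0.09 in MI and 0.95 ± 0.08 in RQ, against 2.00 ± 0.05 in WT (SD, n = 2 each). Its change was -0.88 ± 0.11 (SE) in MI minus WT, with a limma adjusted p of 0.00604. In RQ minus WT the change was -1.04 ± 0.11, with a limma adjusted p of 0.00808. Ordered from the lowest change of all tested, miR-466 stood at place 8 in MI minus WT and at place 20 in RQ minus WT. Without MI replicate 1 its adjusted p in MI minus WT was 0.0532 (limma; change of -0.94), and with the scanner's processed signals its change there was -1.44.

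miR-467* had a net Cy3 signal of 124 and 105 on the MI arrays and 113 and 115 on the RQ arrays, against 310 and 191 on the WT arrays. Both RQ arrays lay inside the MI range, every mutant array lay below both WT arrays, and the 2 WT arrays stood further apart than the mutant ones. On the RQ arrays this signal was little above the negative controls, at 93.0 and 102.8, although the scanner marked all its spots as well above local background. The log2 ratio was 0.27 ± 0.06 in MI and 0.06 ± 0.03 in RQ, against 1.13 ± 0.23 in WT (SD, n = 2 each). The change was -0.85 ± 0.14 (SE) in MI minus WT, with a limma adjusted p of 0.0132, and -1.06 ± 0.14 in RQ minus WT, with a limma adjusted p of 0.00808. One of the 4 spots of this probe was brighter than the other 3 on 5 of the 6 arrays. On MI replicate 2, RQ replicates 1 and 2 and WT replicate 2 the scanner had marked that spot as an outlier and it was left out, at a net Cy3 signal of 827, 737, 1206 and 316. On MI replicate 1 it read 231 and was kept, beside 72.0 to 105 on the other 3 spots. With all 4 spots kept, a choice made after seeing the data, the mean net Cy3 signal was 124 and 286 on the MI arrays and 269 and 388 on the RQ arrays, against 310 and 222 on the WT arrays. The groups then overlapped, and the ratio to WT was 0.770 in MI and 1.23 in RQ. The median of the same 4 spots was 97.0 and 110 on the MI arrays and 115 and 119 on the RQ arrays, with a ratio of 0.415 in MI and 0.468 in RQ to the WT mean of such medians, so the fall of net Cy3 rests on leaving out or outvoting that spot. Why it is bright was not tested. In the fit of log2 ratios with all marked spots kept, the changes were -0.69 in MI and -0.73 in RQ, and both calls held. With the scanner's processed signals they were -1.68 and -2.23. The call in MI minus WT was lost without either MI array (limma adjusted p of 0.0776 and 0.0794), and that in RQ minus WT without RQ replicate 1 (limma adjusted p of 0.054).

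**Figure D1:**
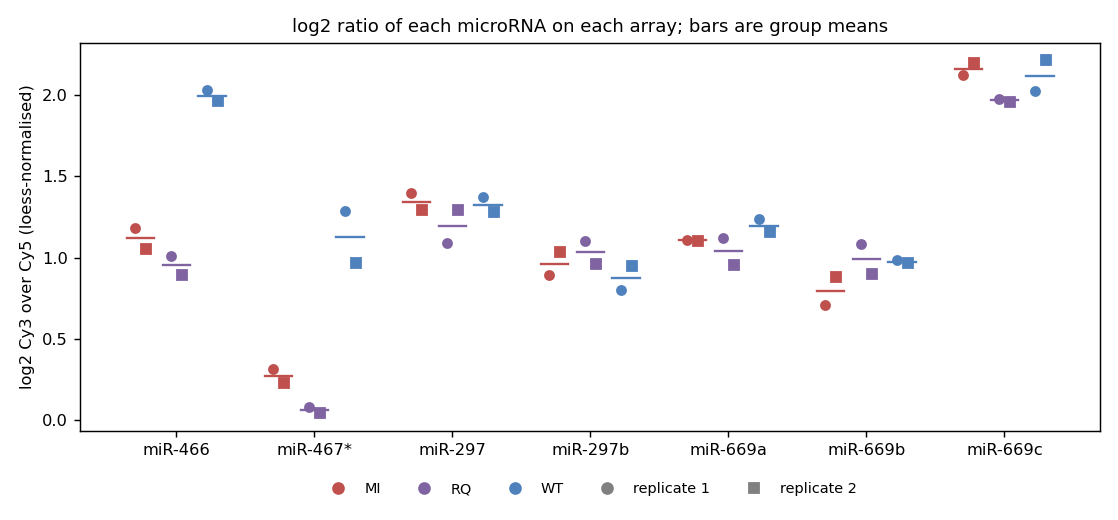
Loess-normalised log2 ratio of Cy3 over Cy5 (vertical axis) of the 7 members on the 6 arrays, with 1 point per array, circles for replicate 1, squares for replicate 2 and short bars for group means. The MI and RQ points of miR-466 and miR-467* lie below both WT points, while those of the other 5 members lie closer to them.

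**Figure D2:**
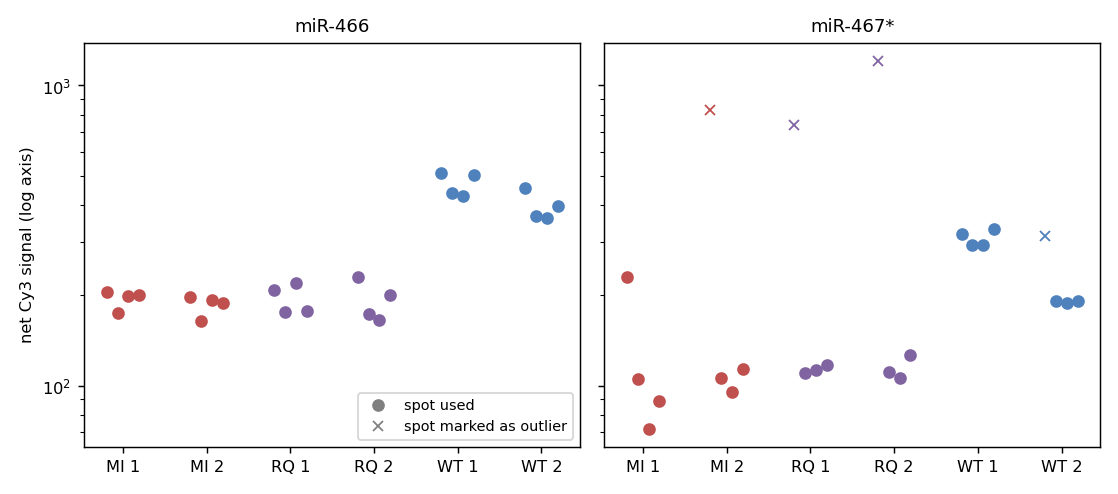
Net Cy3 signal (log axis) of the 4 spots of miR-466 and miR-467* on each array; crosses are spots that the scanner marked as outliers and that were left out. All 16 mutant spots of miR-466 lie at 164 to 231, under the 8 WT spots at 362 to 512, and the marked miR-467* spots reach 1206.

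miR-297 and miR-297b, the pair that shares a seed, did not pass the test in either mutant. miR-297 had a net Cy3 signal of 326 and 441 on the MI arrays and 556 and 710 on the RQ arrays, against 463 and 420 on the WT arrays. Its RQ mean was 1.44 times the WT mean in Cy3 and 1.36 times in Cy5. The median tested microRNA was at 1.15 times in Cy3 and 0.939 times in Cy5. The log2 ratios of miR-297 overlapped between all 3 groups, at 1.39 and 1.29 in MI, 1.09 and 1.29 in RQ and 1.37 and 1.28 in WT. Its change was 0.02 ± 0.12 in MI minus WT and -0.13 ± 0.12 in RQ minus WT (SE), with limma adjusted p of 0.920 and 0.479. miR-297b had a net Cy3 signal of 157 and 209 on the MI arrays and 333 and 403 on the RQ arrays, against a mean of 189.9 ± 25.6 (SD, n = 2) on the WT arrays. The RQ mean was 1.94 times the WT mean in Cy3, but Cy5 moved with it, to 1.70 times, on the same arrays. The log2 ratio of miR-297b therefore changed by 0.16 ± 0.12 in RQ minus WT (SE; 95% interval -0.14 to 0.46) and was not called.

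The 3 miR-669 members were not called either. miR-669a had a net Cy3 signal of 293.8 and 444 on the MI arrays and 606 and 596 on the RQ arrays, against 639 and 438 on the WT arrays. Its log2 ratio was 1.11 and 1.105 in MI, 1.12 and 0.96 in RQ and 1.23 and 1.15 in WT, so each mutant array lay below both WT arrays by less than the test could call. The change was -0.09 ± 0.11 in MI minus WT and -0.16 ± 0.11 in RQ minus WT (SE). Log2 ratios wholly below those of WT were seen for 4 of 7 members in MI and 4 of 7 in RQ, called or not. The share of all tested microRNAs with such an order was not counted, so these counts say nothing particular about the members. miR-669b had a net Cy3 signal of 158 and 217 on the MI arrays and 394 and 427 on the RQ arrays, against 272 and 223.3 on the WT arrays. As for miR-297 and miR-297b, the RQ arrays were high in both channels, at 1.66 times the WT mean in Cy3 and 1.41 times in Cy5. Its log2 ratio changed by -0.18 ± 0.12 in MI minus WT and 0.02 ± 0.12 in RQ minus WT (SE).

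miR-669c had a net Cy3 signal of 815 and 1334 on the MI arrays and 1289 and 1114 on the RQ arrays, against 1541 and 1257 on the WT arrays. Its Cy5 signal was 235 and 370 on the MI arrays and 254 and 246 on the RQ arrays, against a mean of 457.4 ± 53.2 (SD, n = 2) on the WT arrays. The Cy5 mean was thus 0.661 times the WT one in MI and 0.546 times in RQ, although Cy5 carried RNA of one label. The log2 ratio changed by 0.04 ± 0.12 in MI minus WT and -0.15 ± 0.12 in RQ minus WT (SE), with limma adjusted p of 0.812 and 0.385. With Cy3 alone, without the ratio to Cy5, miR-669c was lower in RQ by a called change of -0.82 (limma adjusted p = 0.0286), and with median centring in place of loess its change turned to 0.24 (limma adjusted p = 0.148).

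**Figure D3:**
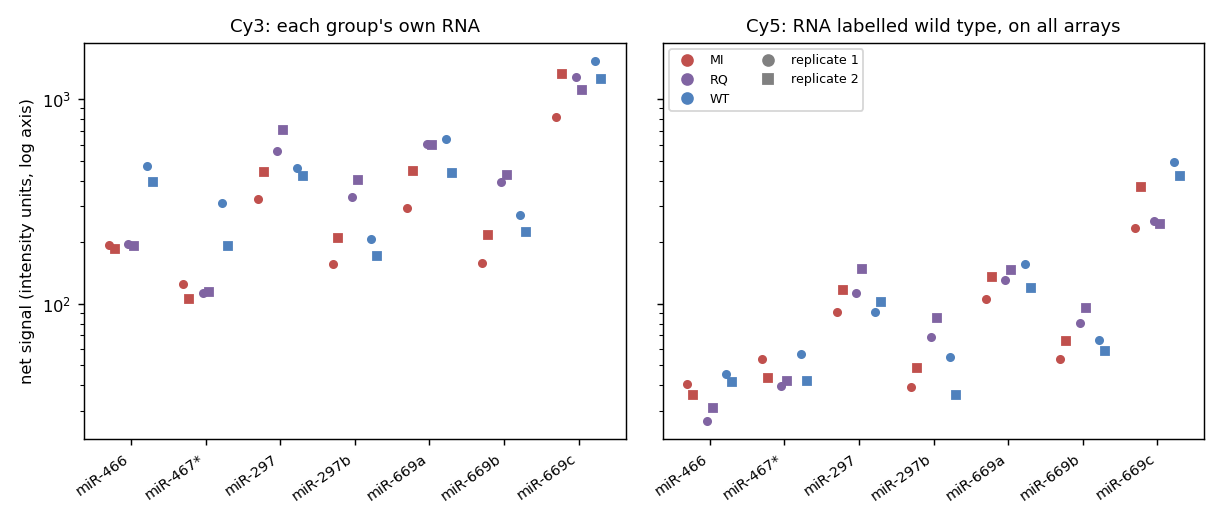
Net signal (log axis) of each member on each array, Cy3 at left and Cy5 at right, with circles for replicate 1 and squares for replicate 2. miR-466 and miR-467* were lower on the mutant arrays in Cy3, and miR-669c was lower on the mutant arrays in Cy5. miR-297, miR-297b and miR-669b were higher on the RQ arrays in both channels.

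The 7 members did not all change alike. The 95% intervals of the change in MI minus WT were -1.15 to -0.60 for miR-466 and -1.20 to -0.51 for miR-467*. For the 5 miR-297 and miR-669 members they reached no lower than -0.48. In RQ minus WT the intervals were -1.32 to -0.77 for miR-466 and -1.40 to -0.72 for miR-467*, and those of the other 5 reached no lower than -0.44. With the scanner's processed signals, miR-297, miR-669a and miR-669b changed by -0.52, -0.63 and -0.57 in MI minus WT, and miR-297 and miR-669a by -0.58 each in RQ minus WT, beyond these limits and not called. The difference between members was not itself tested. The median change of the 7 members was -0.09 in MI minus WT, beside 0.11 over all tested, and -0.15 in RQ minus WT, beside 0.03 over all tested. Fewer cells that make a microRNA and less of it per cell cannot be told apart in RNA from whole embryoid bodies. Of the 12 markers of pluripotent and early differentiating cells, 11 were tested. In MI minus WT 3 were called lower and 0 higher, namely miR-302, miR-302d and miR-367. In RQ minus WT 3 were called lower and 0 higher, namely miR-294, miR-295 and miR-302d, so only miR-302d was called in both. Among all tested microRNAs 6.46% and 13.9% were called lower. In RQ minus MI 4 markers were called higher and 1 lower, beside 3.06% and 7.82% of all tested. The summed net Cy3 signal of the 12 markers was 52722 and 66978 on the MI arrays and 74813 and 71552 on the RQ arrays, against 89135 and 52561 on the WT arrays, so the groups overlapped. This sum was not normalised, and the median tested microRNA also differed between the WT arrays, at 243 and 184 in net Cy3. The brightest probes weigh most in it, so it does not speak to single markers. The part of pluripotent and early differentiating cells in the fall of miR-466 and miR-467* was not tested. The MI and RQ comparisons use the same 2 WT arrays and are therefore not independent of each other.

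Between the mutants, 0 of 7 members were called by limma in RQ minus MI, where 10.9% of all tested microRNAs were called. With only 7 members, that count says nothing particular about them. Of the 7, 0 had an unadjusted limma p under 0.05. The share of all tested microRNAs at that unadjusted threshold was not counted. For miR-466 the change was -0.17 ± 0.11 in RQ minus MI (SE; 95% interval -0.44 to 0.11). For miR-467* it was -0.21 ± 0.14 (SE; 95% interval -0.55 to 0.13). The intervals leave room for a somewhat lower level in RQ. The highest change was that of miR-669b, at 0.20 ± 0.12 (SE; 95% interval -0.11 to 0.50), and the MI and RQ arrays share a slide row.

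**Figure D4:**
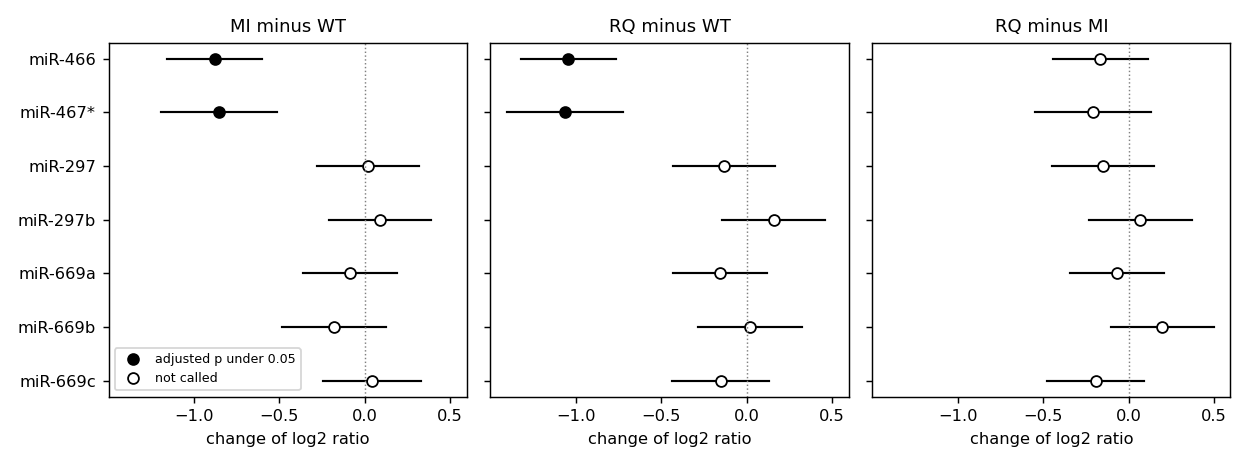
Change of the log2 ratio of Cy3 over Cy5 (horizontal axis) for each member in 3 comparisons, with 95% intervals as lines; filled points were called at an adjusted p under 0.05. The 2 called members, miR-466 and miR-467*, stand apart at -0.85 to -1.06 against WT, and no interval in RQ minus MI lies clear of 0.

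Cy5 was also fitted on its own, an addition made after the data had been seen. In that fit 0 of 7 members were called by limma in either mutant, where 0% of all tested microRNAs were called in MI minus WT and 5.10% in RQ minus WT, so the count says nothing particular about the members. Cy5 of miR-466 changed by -0.09 ± 0.06 in MI minus WT and -0.26 ± 0.06 in RQ minus WT (SE), with limma adjusted p of 0.511 and 0.073. Cy5 of miR-467* changed by -0.04 ± 0.07 in MI minus WT and -0.14 ± 0.07 in RQ minus WT (SE), with limma adjusted p of 0.824 and 0.249. Cy3 of miR-466 fitted on its own changed by -0.98 in MI minus WT and -1.42 in RQ minus WT, and Cy3 of miR-467* by -0.95 and -1.36 in the same comparisons, all 4 called by limma.

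Over the 6 arrays the log2 ratios of miR-466 and miR-467* went together, with a Pearson r of 0.99. Beside each other, the tested microRNAs most like miR-466 were miR-26a (r = 0.98), miR-299 (r = 0.97) and miR-17-5p (r = 0.97). Those most like miR-467* were miR-17-5p (r = 0.97), miR-26a (r = 0.97) and miR-15b (r = 0.95). Among the UG-rich members, miR-297 and miR-297b had an r of -0.85, and miR-669a and miR-669b one of 0.26. These values are descriptions over 6 arrays that share a Cy5 RNA and 3 groups, and the ratios of the UG-rich members varied little.

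miR-467* shares the letters AAGUGC near its 5′ end with 10 other probes, though not always at the same base. They start at base 3 in miR-467*, miR-106b, miR-17-5p, miR-20a and miR-93. The start is base 2 in miR-106a, miR-20b, miR-294, miR-295 and miR-302, and base 1 in miR-302d, as read from parts that may lack a first base. AAGUGC is the core of the seed of the miR-17, miR-290 and miR-302 groups, which are known to promote cell proliferation and stem cell renewal. This set was chosen after the values had been seen. In MI minus WT 3 of the 10 were called lower and 0 higher, namely miR-302 (change of -1.79), miR-302d (-1.61) and miR-17-5p (-0.46). In RQ minus WT 4 of the 10 were called lower and 0 higher, namely miR-294 (-1.51), miR-295 (-1.16), miR-17-5p (-0.65) and miR-302d (-0.54). All of these called probes but miR-17-5p are also among the called pluripotent and early differentiating markers named above, so the lists are not separate. The shares of all tested microRNAs called lower are the 6.46% and 13.9% given above. The median change of the 10 was -0.40 in MI and -0.47 in RQ, beside 0.11 and 0.03 over all tested.

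Of the other microRNAs with a TGTGTG or CACACA run, 6 were tested. In MI 3 of the 6 rose, the muscle microRNA miR-206 by 1.49, miR-342 by 1.08 and miR-672 by 0.73, and 0 fell; 9.18% of all tested microRNAs were called higher in MI. In RQ miR-672 rose by 0.98 and miR-294, a stem cell microRNA, fell by 1.51; the other 4 were not called, and 7.48% of all tested microRNAs were called higher in RQ. Among the other imprinted microRNAs, 41 of the Dlk1-Dio3 region, whose microRNAs are expressed from the maternal copy, were tested. In MI, miR-543 (0.58) and miR-665 (0.58) were called higher and miR-299 (-0.45) and miR-127 (-0.44) lower. In RQ only miR-299 was called, at -0.63, of those 41. Called in either direction were 15.6% of all tested microRNAs in MI and 21.4% in RQ. Of the 3 microRNAs of the imprinted genes Gnas and Mest, 0 were called by limma in MI, while miR-335 rose by 0.65 and miR-298 fell by 1.06 in RQ. The median change of the Dlk1-Dio3 list was -0.04 in MI and -0.08 in RQ.

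**Figure D5:**
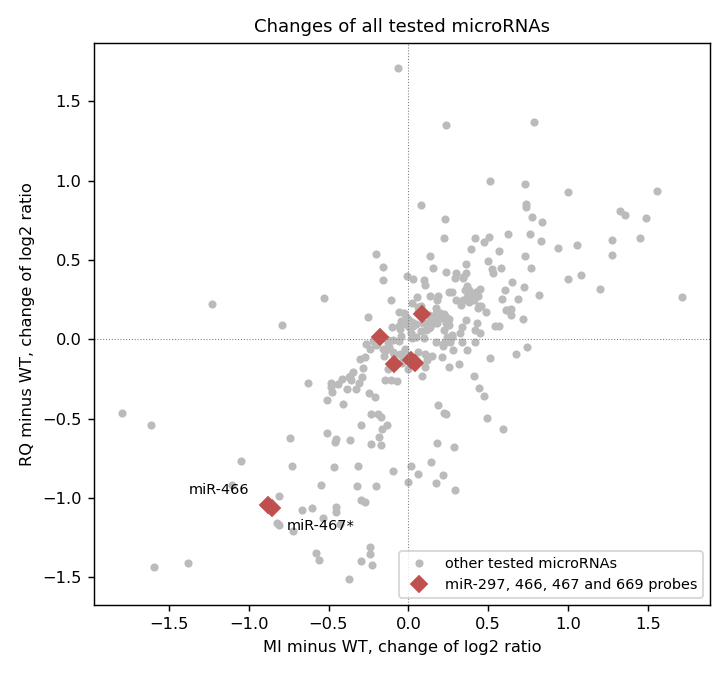
Change of the log2 ratio of all tested microRNAs in MI minus WT (horizontal axis) and RQ minus WT (vertical axis), 1 point each, which share the WT arrays. miR-466 and miR-467* lie together at -0.88 and -0.85 in MI and -1.04 and -1.06 in RQ, and the other 5 members lie between -0.18 and 0.16 on both axes.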

How the data were processed

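The deposited scanner files give, per the file headers (Agilent Feature Extraction, version 9.5.1.1), the mean and median background intensity of each spot in both dyes, on a linear scale, and a log10 ratio of processed signals. The authors' deposited value table equals minus that log10 ratio, with a largest difference of 0. Each file listed 1932 features, of which 1336 were spots of the 334 mouse probes.

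Intensities were background-corrected (normexp, offset 50) and loess-normalised within arrays in limma 3.58.1 (R 4.3.3), with control and marked spots at no weight. Marked spots, 60 to 99 per array, were removed and the rest averaged per probe as log2 Cy3 over Cy5. A probe entered the tests if 2 or more arrays had over 0.5 of its spots well above background in Cy3 or in Cy5. Groups were compared on all 6 arrays by lmFit and eBayes with Benjamini-Hochberg adjustment. The number of arrays limits the precision. In all, 16 alternatives were run.

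Members and lists were chosen with earlier results of these data known. Named microRNAs were all members, the 3 most like each called member and other probes with the repeat run. Up to 3 called members of each comparison list were also named. The AAGUGC set, miR-127 and the called markers of pluripotent and early differentiating cells were chosen after their values were seen. Sequences are the probes' own; gene names and the hairpin match come from RefSeq (GRCm38.p6). Of the 334 microRNA parts, 133 equalled a RefSeq mature sequence.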

Additional observations from a re-analysis of the deposited data

How the results depend on the processing

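Over 16 alternatives no called change of a member turned its sign. The 16 are not all separate checks. In each comparison, leaving out either array of the third group gave the same fit as using only the 2 groups compared. The deposited table and the scanner's processed signals also gave nearly the same changes. miR-466 was called lower in 15 of 16 in MI minus WT (-1.44 to -0.81) and in 16 of 16 in RQ minus WT (-1.42 to -0.98). miR-467* was called lower in 14 of 16 in MI minus WT (-1.68 to -0.69) and in 15 of 16 in RQ minus WT (-2.23 to -0.73), the extremes coming from the scanner's processed signals or the deposited table and from keeping marked spots. Without MI replicate 1 neither member was called in MI minus WT (limma adjusted p of 0.0532 and 0.0776), without MI replicate 2 miR-467* was lost (0.0794), and without RQ replicate 1 miR-467* was lost in RQ minus WT (0.054); a lone array was assumed to vary like the other groups. Members called thus ranged from 0 to 2 in MI minus WT and 1 to 2 in RQ minus WT when 1 replicate was left out, and with Cy3 alone 3 were called in RQ minus WT. The additional member was miR-669c, and the miR-297 and miR-669 members were called in none of the other alternatives, where their lowest changes, from processed signals or the deposited table, were -0.63 in MI minus WT (miR-669a) and -0.58 in RQ minus WT (miR-297).

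Over all microRNAs, leaving out 1 replicate gave 6 to 63 calls in MI minus WT (46 with all arrays), 5 to 60 in RQ minus WT (63) and 0 to 48 in RQ minus MI (32). Fits of only the 2 groups compared gave 27 in MI minus WT and 47 and 48 in the others. Keeping marked spots gave 14 in RQ minus MI. Replicate numbers are not stated to pair arrays; with the replicate block, members called were 2, 2 and 0 and all calls 39, 59 and 38. Calls higher and lower were 27 and 19 in MI minus WT, 22 and 41 in RQ minus WT and 9 and 23 in RQ minus MI; with median centring they were 19 and 25, 41 and 20, and 19 and 13. With Cy3 alone they were 10 and 25 in MI minus WT and with processed signals 9 and 23. Cy3 alone, processed signals and the deposited table moved the median of all microRNAs in RQ minus WT by -0.13, -0.30 and -0.30, each less than the changes of miR-466 and miR-467*.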
